A study of Mus musculus with 20 samples.

Results

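The genes described here encode the subunits of oxidative phosphorylation in mouse liver. They were chosen by name alone, as the array probes with a single symbol that begins with Ndufa, Ndufb, Ndufc, Ndufs, Ndufv, Uqcr, Cox4 to Cox8 or Atp5, or that is Sdha, Sdhb, Sdhc, Sdhd or Cyc1. The choice took in 92 of 23493 probes and 87 of 15252 genes. By their names, 33 genes belonged to complex I, 4 to complex II, 9 to complex III, 17 to complex IV and 14 to complex V, which gave 77 subunit genes. The same name stem Ndufa also drew in 8 complex I assembly factors, Ndufaf1 to Ndufaf8, and 2 further entries, Ndufs5-ps and Atp5k-ps1, were pseudogenes. Ndufa4 was counted with complex I by its name, although its protein is also known as a component of complex IV. Probes of the same gene were averaged, which concerned 5 genes with 2 probes each.

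The inner mitochondrial membrane holds the chain that carries electrons from food to oxygen. Complex I takes electrons from NADH and complex II from succinate, complex III passes them from ubiquinol to cytochrome c, and complex IV hands them to oxygen. Complexes I, III and IV pump protons, and complex V, the ATP synthase, makes ATP as the protons flow back. A few subunits of complexes I, III, IV and V are encoded in mitochondrial DNA, and all others, including every gene described here, in the nucleus. Peroxisome proliferator-activated receptor alpha, encoded by Ppara, is a nuclear receptor that drives the genes of fatty acid oxidation in liver, a process that feeds NADH and FADH2 into this chain.

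Livers came from 20 mice in 5 groups of 4, taken 48 h after hydrodynamic tail vein injection, in which a large volume is injected quickly so that nucleic acid enters liver cells. The vehicle group received Ringer's solution, and each other group received 40 µg of 1 siRNA in that solution. PPARa siRNA and PPARa-M siRNA both target Ppara, at different stretches of its mRNA, whereas the controls target reporter genes: SEAP-M control siRNA secreted alkaline phosphatase and GL3 control siRNA luciferase. What the suffix M stands for is not given in the sources used here, and neither are the strain and the age of the mice. RNA of each liver was hybridized against pooled RNA of 4 mice given vehicle, on a 2-colour oligonucleotide array, and each value is a log ratio of that mouse to the pool.

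A value of 0 on the log10 scale means that mouse and pool gave the same signal. The scale is taken as log10 because the table stops at 2 and -2, since the labels do not name the base. The direction, mouse over pool, is likely but not stated: the Ppara ratio was lower with the siRNAs that target it, and the study describes a decrease. The labels list the same dye order for all 20 arrays and no dye swap, so a ratio to the pool can hold a dye effect, which would cancel only between groups. Signals of the single channels were not used here. Levels of different genes therefore cannot be compared with each other, and the tissue cannot be checked against the levels of its markers. In whole liver, fewer cells of a type and less RNA per cell cannot be told apart. The labels name no batch, and the mice of a group are separate animals.

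In the targeted gene, Ppara, the log2 difference of the PPARa-M mice from the SEAP-M mice was -0.89 (SE 0.17), or 54.0% of the control (adjusted p = 0.0103, limma). For the PPARa mice against the GL3 mice it was -0.34 (SE 0.17), or 78.8%, and did not pass (adjusted p = 1.0, limma). Since the direction of the ratios rests partly on this gene, the sign of its difference is no independent check, and all signs would turn with the opposite direction. With each array scaled to one interquartile range, the PPARa-M difference was -0.57, or 67.2%, and no longer passed (adjusted p = 0.116, limma). The spread of the ratios over all probes also differed between groups. The interquartile range averaged 0.0919 log10 units with PPARa-M siRNA, 0.0663 with PPARa siRNA, 0.0649 with SEAP-M control siRNA, 0.0540 with GL3 control siRNA and 0.0532 with vehicle. The PPARa-M arrays were thus the widest. With scaled arrays, and also with quantile-normalized ones, 0 of 15252 genes were called with PPARa-M against SEAP-M, so every call named below in that comparison was lost under both.

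Ratios of the oxidative phosphorylation genes stayed close to those of the pool in all 5 groups. The mean over the 77 subunit genes was -0.0055 ± 0.0208 (SD, n = 4) log10 units with vehicle, -0.0270 ± 0.0308 with GL3 control siRNA, -0.0180 ± 0.0331 with PPARa siRNA, -0.0079 ± 0.0144 with SEAP-M control siRNA and -0.0160 ± 0.0234 with PPARa-M siRNA. These means lie closer to each other than the mice of a group do. Within groups, the SD of a single gene had a median of 0.0442 over the 87 genes and of 0.0446 over all 15252 genes, so that these genes were neither steadier nor more variable than the array at large.

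**Figure D1:**
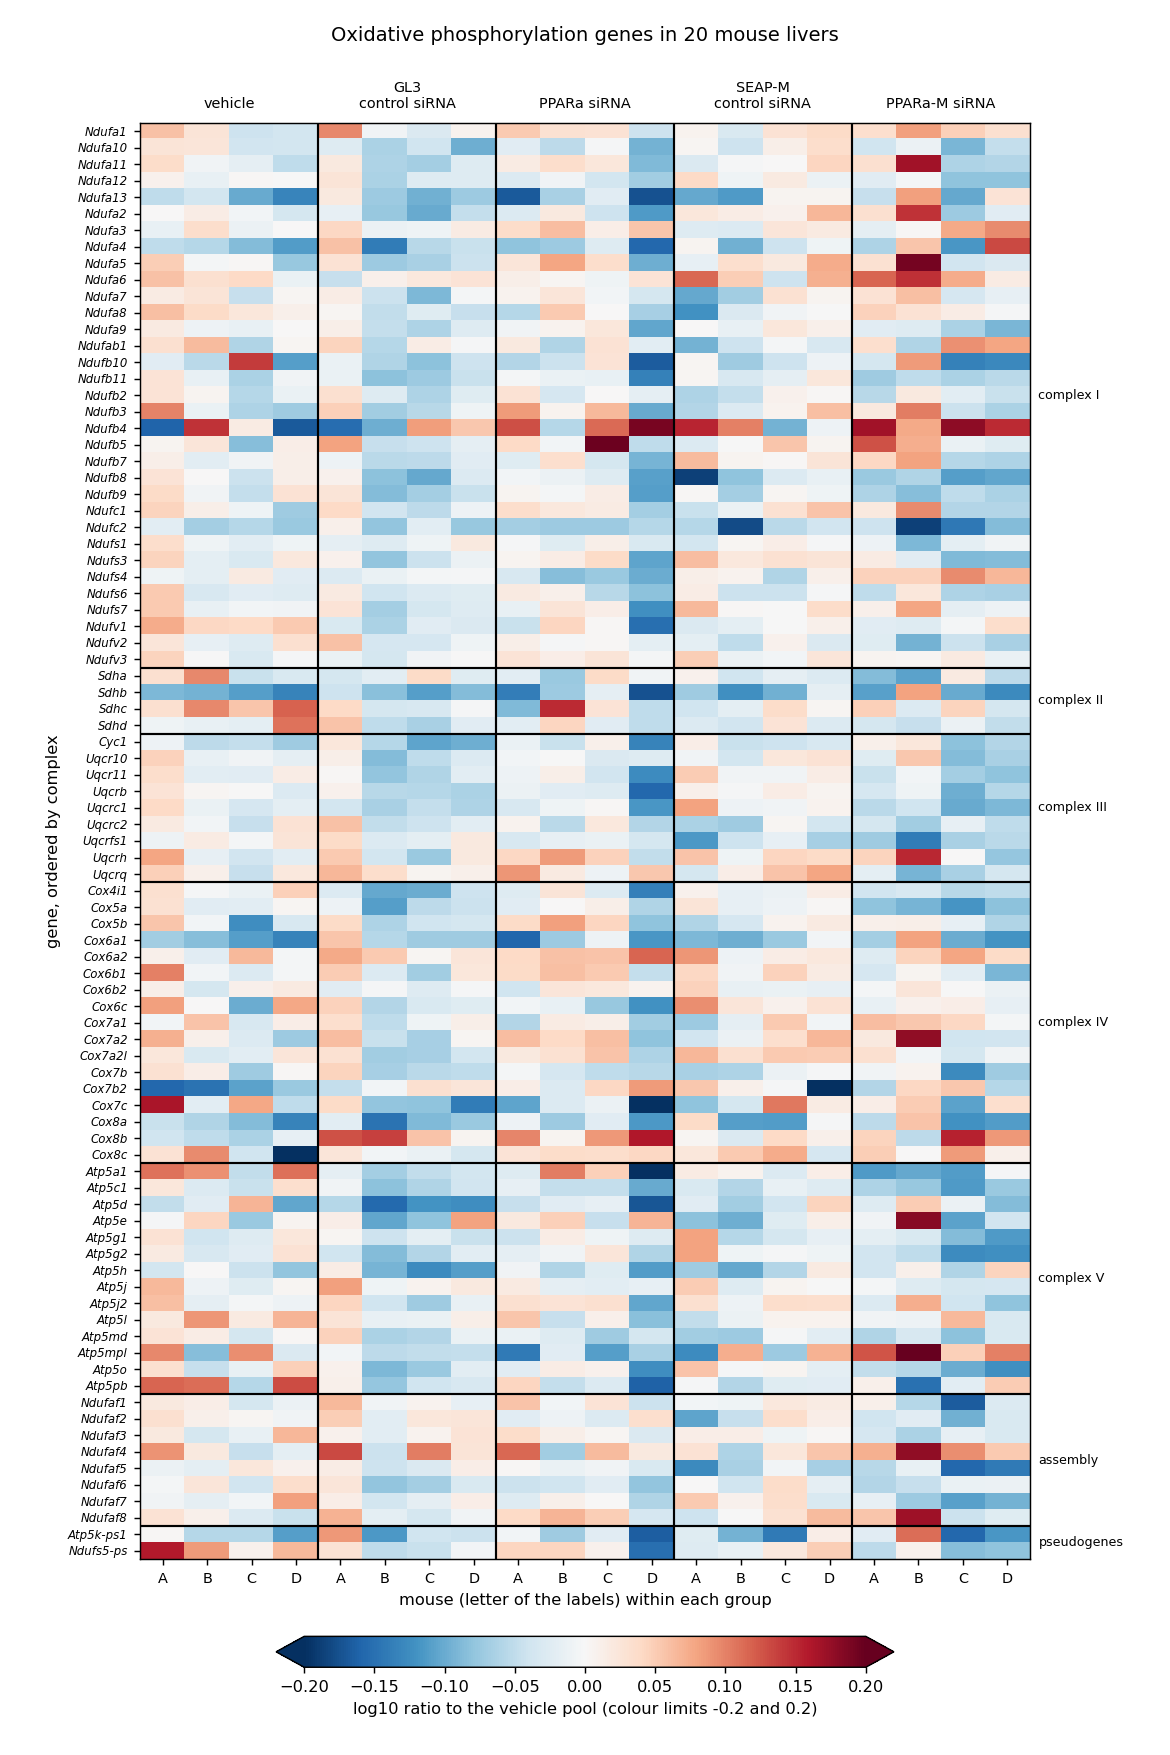
Log10 ratio to the vehicle pool (colour, limits -0.2 and 0.2) of the 87 genes (vertical axis, ordered by complex) in each of 20 mice (horizontal axis, 4 per group). Most cells are pale, and the mouse PPARa siRNA D shows as a blue column, with 67 of 77 subunit genes below 0.

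Mice of the same group differed in how many of these genes lay below the pool. In the mouse PPARa siRNA D, 67 of the 77 subunit genes were below the pool, against 44, 39 and 36 in the mice A, B and C of that group. In the mouse GL3 control siRNA B, 73 were below it, against 24 in the mouse A of the same group and 68 and 60 in C and D. In the vehicle mouse A only 19 were below. Leaving out PPARa siRNA D left the count of called genes at 0 with that siRNA against GL3 control siRNA. No gene of the 87 was on 1 side of the pool in all 20 mice.

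NRF-1 and the ETS factor GABP, also called NRF-2, are known to bind many promoters of respiratory chain genes. RefSeq promoter windows of the build GRCm38.p6 were found for 70 of the 87 genes, and the 250 bases before each start were searched on both strands. The NRF-1 letters, GCGCA and GCGC with 1 free base between them, stood in 12 of 70 (17.1%), against 4.23% of the windows of 27025 genes. The ETS letters CCGGAAG stood in 13 (18.6%), against 7.83%. The GC box letters GGGCGG stood in 41.4% against 35.4%, the CCAAT letters in 44.3% against 37.5% and the TATA box letters TATAAA in 10.0% against 14.3%. The direct repeat of AGGTCA with 1 free base between the copies, a perfect form of the element that PPARA binds with its partner RXR, stood in 0 of 70, against 0.0407% of all. With only 11 of 27025 genes holding this perfect form, a count of 0 among 70 cannot show whether the members lack such elements. Matches of different motifs may share bases. The windows had a median of 57.6% GC in the members and 52.4% over all genes, and the shares were not adjusted for this. A match of letters is a description and not a measured site.

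The windows of 3 called genes are shown, ending at the base before the start. They run 5′ to 3′ on the strand of the gene, with motif letters in capitals. The choice of these genes did not follow how well their calls held. The Atp5c1 call, against vehicle, was lost in 15 of 20 fits that left out an array. Uqcrfs1, whose call against vehicle was lost in 3 of 20 such fits, is not shown, and its window held none of these motifs. Ndufs4 (chr13:114388095-114388344, minus strand) held none of these motifs and had 42.0% GC. Cox5a (chr9:57520982-57521231, plus strand) held a GC box, 13 to 8 bases before the start, and had 63.2% GC. The annotated span of Cox5a, 57517328 to 57532427, takes in this window, so the start used is not the outermost one of the gene. Atp5c1 has 2 windows. The one shown (chr2:10080433-10080682, minus strand) held the NRF-1 letters 17 to 8 bases before the start and a CCAAT box 240 to 236 bases before it. The other (chr2:10080511-10080760, minus strand) held a CCAAT box 162 to 158 bases before its start and no NRF-1 letters. The annotated span of Atp5c1 ends at 10080510, inside the window shown and just outside the other.
Ndufs4: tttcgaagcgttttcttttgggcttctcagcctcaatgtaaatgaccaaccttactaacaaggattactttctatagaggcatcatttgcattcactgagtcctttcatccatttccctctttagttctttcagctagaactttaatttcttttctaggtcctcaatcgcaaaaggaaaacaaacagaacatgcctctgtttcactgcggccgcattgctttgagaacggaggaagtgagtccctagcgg
Cox5a: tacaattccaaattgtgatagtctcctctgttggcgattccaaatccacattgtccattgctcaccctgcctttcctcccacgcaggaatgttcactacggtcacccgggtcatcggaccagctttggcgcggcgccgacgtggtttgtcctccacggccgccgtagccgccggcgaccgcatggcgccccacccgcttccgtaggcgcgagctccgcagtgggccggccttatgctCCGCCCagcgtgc
Atp5c1: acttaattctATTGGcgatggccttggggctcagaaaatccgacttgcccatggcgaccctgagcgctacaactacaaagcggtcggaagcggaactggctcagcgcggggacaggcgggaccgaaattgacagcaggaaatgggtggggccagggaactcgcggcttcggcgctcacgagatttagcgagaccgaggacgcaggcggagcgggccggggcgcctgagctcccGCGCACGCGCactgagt

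Each Ppara siRNA was compared with the control siRNA that shares its suffix, M or none, a pairing that rests on the names alone. The question was whether siRNAs against the receptor were accompanied by changes in the respiratory chain. With PPARa-M siRNA, 1 of the 87 genes, Cox5a, was called at an adjusted p under 0.05, against 2.54% of all genes (limma, over 15252 genes). Before adjustment, 4 of the 87 were higher, against 7.68% of all genes, and 12 lower, against 11.1%, at the same threshold. With PPARa siRNA, 0 were called, against 0.0525% of all genes, and before adjustment 0 were higher, against 2.09%, and 1 lower, Ndufs4, against 2.86%. With both Ppara siRNAs against both control siRNAs, 0 were called, against 0.216% of all genes, and before adjustment 2 were higher, against 4.5%, and 2 lower, against 6.85%. In the last comparison the 87 differences had a median of -0.02 on the log2 scale and ran from -0.17 to 0.38. The half-width of a gene's 95% interval had a median of 0.15 there and of 0.22 in a comparison of 4 mice with 4. The half-widths ran from 0.09 to 0.358 and from 0.127 to 0.506, so the size that could be detected differed between genes.

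**Figure D2:**
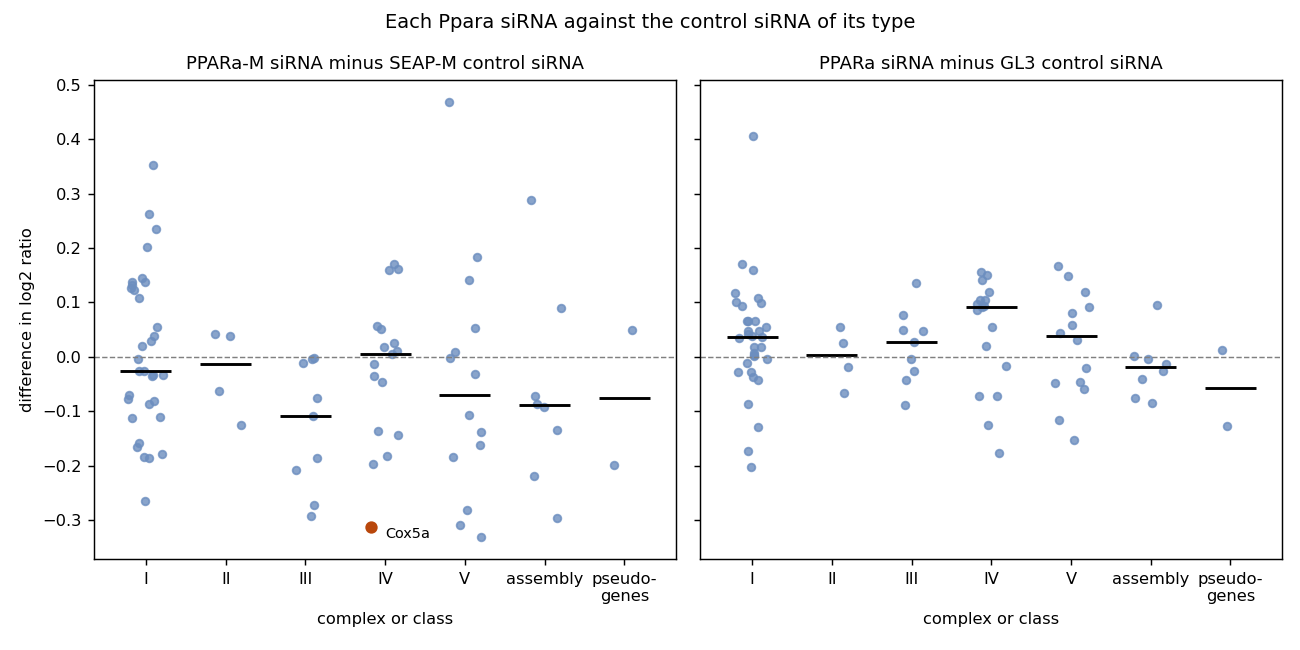
Difference in log2 ratio (vertical axis) of each gene, by complex or class (horizontal axis), for PPARa-M siRNA minus SEAP-M control siRNA (left) and PPARa siRNA minus GL3 control siRNA (right), 4 mice per group. Black bars are medians, and the larger labelled point, Cox5a at -0.31, is the gene called. All 9 complex III genes lie below 0 on the left, against 6 with arrays centred on their medians.

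Cox5a, a nuclear-encoded subunit of cytochrome c oxidase that lies close to its catalytic core, was lower with PPARa-M siRNA. Its log10 ratios were -0.081, -0.092, -0.118 and -0.082 in the PPARa-M mice A to D and 0.026, -0.016, -0.0095 and 0.0026 in the SEAP-M mice. All 4 PPARa-M mice were below every SEAP-M mouse and also below every vehicle mouse, whose ratios were 0.031, -0.022, -0.021 and 0.0042. The log2 difference from SEAP-M was -0.31 (SE 0.07), or 80.5% of the control level (adjusted p = 0.0279, limma), and that from vehicle was -0.30 (SE 0.07, adjusted p = 0.0194, limma).

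In the other siRNA pair, the Cox5a ratios were -0.022, 0.0014, 0.012 and -0.061 with PPARa siRNA and -0.011, -0.110, -0.052 and -0.042 with GL3 control siRNA. The groups overlapped, and the log2 difference of 0.12 (SE 0.07) did not pass (adjusted p = 1.0, limma). The test of the difference between both pairs gave -0.43 (SE 0.10, adjusted p = 0.0525, limma). The Cox5a call against SEAP-M was lost with arrays scaled to one interquartile range (-0.20, adjusted p = 0.285, limma), and likewise with quantile normalization (-0.21, adjusted p = 0.39, limma). It was also lost without the mouse PPARa-M C (adjusted p = 0.0859, limma), PPARa-M D (0.0505), SEAP-M A (0.0862) or SEAP-M C (0.0599).

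Ndufs4, an accessory subunit of complex I near its NADH-oxidizing arm, stood on opposite sides of the pool with the Ppara siRNAs. Its log10 ratios were 0.045, 0.046, 0.094 and 0.066 in the PPARa-M mice and -0.032, -0.086, -0.074 and -0.099 in the PPARa mice. They were 0.012, 0.0072, -0.061 and 0.011 with SEAP-M, -0.028, -0.013, -0.0046 and -0.0018 with GL3 and -0.0086, -0.019, 0.018 and -0.022 with vehicle. Every PPARa-M mouse was thus above, and every PPARa mouse below, all mice of the 3 other groups except SEAP-M C, which was among the PPARa mice.

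The Ndufs4 difference was 0.45 (SE 0.07) on the log2 scale between PPARa-M and PPARa siRNA, or 1.37-fold (adjusted p = 0.000447, limma). This call held under every alternative setting and without any single array, with adjusted p between 0.000277 and 0.0217. Against their own controls the differences were 0.23 (SE 0.07, adjusted p = 0.0617, limma) with PPARa-M and -0.20 (SE 0.07, adjusted p = 0.765, limma) with PPARa, neither of which passed. The test of the difference between those 2 effects gave 0.44 (SE 0.09, adjusted p = 0.034, limma), and Ndufs4 was the 1 gene of the 87 called in it, against 0.879% of all genes. That call was lost with scaled arrays (0.36, adjusted p = 0.154, limma) and in 11 of 20 fits that left out an array, with adjusted p up to 0.0779.

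**Figure D3:**
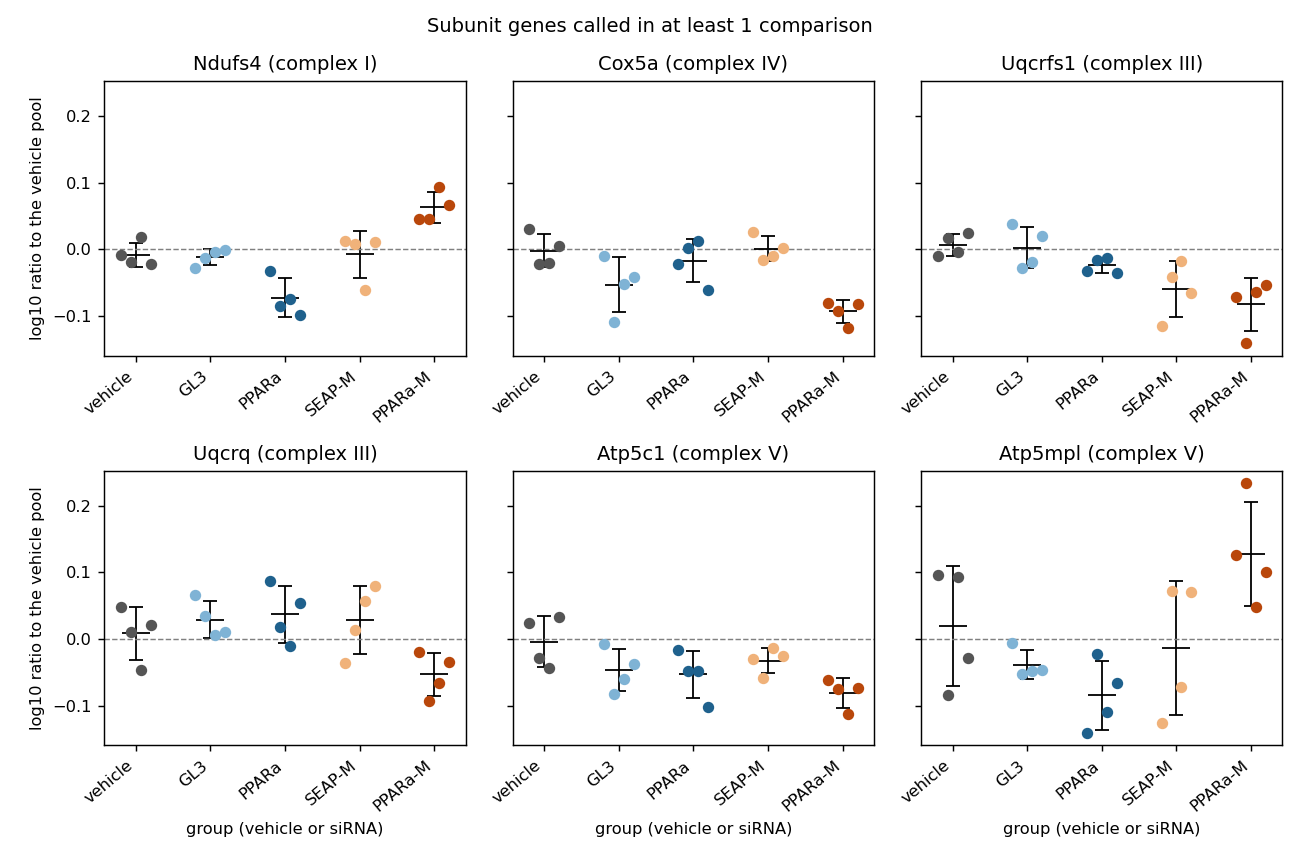
Log10 ratio to the vehicle pool (vertical axis) of 6 subunit genes in each mouse, by group (horizontal axis). Points are mice, with bars for the mean and SD (n = 4). Ndufs4 is above 0 in all 4 PPARa-M mice and below 0 in all 4 PPARa mice, and Cox5a is lowest with PPARa-M.

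An F test over the 5 groups called 2 of the 87 genes, Ndufs4 (adjusted p = 0.00681, limma) and Cox5a (adjusted p = 0.0362, limma), against 5.76% of all genes. The share of the members was 2.30%. The other 85 genes did not pass this test.

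Complex I has core subunits that bear the flavin and the iron-sulfur clusters and accessory subunits around them. Its 33 genes had a median difference of -0.03 on the log2 scale with PPARa-M siRNA against SEAP-M, with 18 below 0, and of 0.04 with PPARa siRNA against GL3, with 10 below 0. The core subunits Ndufs1, which holds iron-sulfur clusters, and Ndufv1, which binds NADH, did not pass in the first comparison (-0.09 and 0.02) or in the second (-0.01 and -0.0045). Ndufs3, another core subunit, was the lowest of the complex with PPARa-M at -0.27 (SE 0.10, adjusted p = 0.163, limma).

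Ndufb4, an accessory subunit of the membrane arm, was the highest of complex I in both comparisons and had the largest SE of the 87 genes. Its ratios were 0.169, 0.076, 0.178 and 0.1499 with PPARa-M, 0.130, -0.057, 0.114 and 0.190 with PPARa, 0.153, 0.1003, -0.094 and -0.010 with SEAP-M, and -0.153, -0.098, 0.084 and 0.054 with GL3. Mice of each group overlapped with those of its control. The differences of 0.35 (SE 0.24, adjusted p = 0.453, limma) and 0.41 (SE 0.24, adjusted p = 1.0, limma) did not pass. In the 4 vehicle mice alone the Ndufb4 ratio ran from -0.167 to 0.145.

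The 8 complex I assembly factors, which build the enzyme and are not part of it, had a median of -0.09 with PPARa-M against SEAP-M and of -0.02 with PPARa against GL3, and 0 were called in either. Ndufaf7, a methyltransferase needed for assembly, was the lowest at -0.30 (SE 0.09, adjusted p = 0.0725, limma), and Ndufaf4 the highest at 0.29 (SE 0.15, adjusted p = 0.296, limma). In the second pair Ndufaf2 was lowest at -0.08 and Ndufaf8 highest at 0.09.

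Complex II is also an enzyme of the citric acid cycle, succinate dehydrogenase, and its 4 genes had the narrowest range of the 5 complexes in both comparisons. With PPARa-M against SEAP-M they ran from -0.12 for the flavoprotein subunit Sdha to 0.04 for the iron-sulfur subunit Sdhb, and with PPARa against GL3 from -0.07 for Sdhb to 0.06 for the membrane anchor Sdhc. A range over 4 genes tends to be narrower than one over 9 or more. The median SD of a gene within groups was 0.0522 in complex II, against 0.0437, 0.0389, 0.0524 and 0.0472 in complexes I, III, IV and V. Sdhb was below the pool in 19 of 20 mice, vehicle mice included, at -0.090, -0.094, -0.110 and -0.133. Since the pool was itself made of vehicle RNA, this offset is shared by all groups, and its origin was not tested. The mouse above it was PPARa-M B, at 0.081.

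Complex III showed the most even direction with PPARa-M. All 9 genes were below 0 against SEAP-M, with a median of -0.11 on the log2 scale, whereas 53 of 87 members (60.9%) and 53.7% of all genes were below 0, and the median over all genes was -0.01. With arrays centred on their medians, 6 of the 9 genes were below 0, and with quantile normalization or scaled arrays 7 of 9, with medians of -0.09, -0.09 and -0.10. None of the 9 passed. The lowest was Uqcrc1, a core subunit, at -0.29 (SE 0.09, adjusted p = 0.0746, limma), with ratios of -0.054, -0.041, -0.1002 and -0.0898 against 0.080, -0.011, -0.0074 and 0.0074 with SEAP-M. The groups did not overlap. The highest was Cyc1, the cytochrome c1 subunit that hands electrons to cytochrome c, at -0.0016, which turned to 0.02 with centred arrays. With PPARa against GL3, the median of complex III was 0.03 and 4 of 9 genes were below 0, beside 34 of the 87 members (39.1%) and 47.1% of all genes.

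Uqcrfs1, the Rieske iron-sulfur subunit, was lower with PPARa-M than with vehicle. Its ratios were -0.072, -0.141, -0.065 and -0.053 with PPARa-M and -0.010, 0.017, -0.0038 and 0.025 with vehicle, with no overlap. The difference was -0.30 (SE 0.08, adjusted p = 0.0259, limma). With SEAP-M the ratios were -0.115, -0.041, -0.017 and -0.066, which overlapped those of PPARa-M, and the difference between these groups was -0.08 (SE 0.08, adjusted p = 0.632, limma). Uqcrfs1 was thus called against vehicle and not against the control siRNA. The call against vehicle was lost with scaled arrays (adjusted p = 0.147, limma) and without vehicle B (0.0525), vehicle D (0.0987) or PPARa-M B (0.0799).

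Uqcrq, a small subunit of complex III, was lower with PPARa-M than with PPARa siRNA. Its ratios were -0.020, -0.093, -0.066 and -0.035 against 0.088, 0.018, -0.010 and 0.054. All PPARa-M mice were below all PPARa mice. The difference of -0.30 (SE 0.09) passed narrowly (adjusted p = 0.0499, limma), and the call was lost with scaled arrays (-0.22, adjusted p = 0.198, limma) and in 15 of 20 fits that left out an array.

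In complex IV the median of 17 genes was 0.01 with PPARa-M against SEAP-M, or -0.02 with scaled arrays, with 8 genes below 0, of which Cox5a was the one called. With PPARa siRNA against GL3 the median was 0.09, with 5 of 17 below 0 and none called. Cox4i1, the widespread form of the largest nuclear-encoded subunit, was at -0.14 (adjusted p = 0.415, limma) in the first pair and at 0.09 (adjusted p = 1.0, limma) in the second. Cox7a2l, known for its role in joining complexes III and IV, was the highest of the complex with PPARa at 0.16, and Cox6a1 the lowest at -0.18.

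Complex IV has subunits with 1 widespread form and 1 form mostly found in heart and skeletal muscle or in testis. Cox8b, a muscle form, had ratios of -0.039, -0.051, -0.063 and -0.017 with vehicle. They were 0.128, 0.137, 0.057 and 0.0062 with GL3, 0.098, 0.0057, 0.087 and 0.160 with PPARa, 0.0045, -0.029, 0.040 and 0.0097 with SEAP-M and 0.045, -0.053, 0.154 and 0.087 with PPARa-M. All 4 vehicle mice were below the pool and below every GL3 and every PPARa mouse. None of these differences passed: 0.41 with GL3, 0.43 with PPARa, 0.16 with SEAP-M and 0.33 with PPARa-M, each against vehicle, with adjusted p from 0.126 to 1.0 (limma).

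The mean of 8 other muscle genes, such as Acta1 of the sarcomere, was also lowest with vehicle, and its part in the Cox8b values was not tested. That mean was -0.0039 with vehicle, 0.112 with GL3, 0.108 with PPARa, 0.038 with SEAP-M and 0.119 with PPARa-M, with ranges over mice of -0.037 to 0.061, 0.0066 to 0.192, 0.026 to 0.184, 0.0050 to 0.079 and 0.085 to 0.166. The mean rested on few genes: Acta1 differed from vehicle by 2.17 on the log2 scale with GL3 and 2.21 with PPARa and Myl1 by 0.89 and 0.68, whereas 3 of the 8 were below 0 in each and the median of the 8 was 0.05 and 0.04. Of the 8, Tnnt2, cardiac troponin T, was called with PPARa-M against SEAP-M (0.75, SE 0.11, adjusted p = 0.00284, limma), and not with scaled arrays (0.45, adjusted p = 0.139, limma). Whether muscle-defining genes are absent from these livers cannot be read from ratios.

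Cox7b2, a testis form, was likewise low in vehicle mice at -0.158, -0.148, -0.107 and -0.075. Its group means were 0.0009 with GL3, 0.028 with PPARa, -0.053 with SEAP-M and -0.0052 with PPARa-M. The SEAP-M mean rested on mouse D at -0.274, since A to C were at 0.054, 0.0098 and -0.0030. Cox7b2 did not pass in any comparison, but without the array SEAP-M D it was called with PPARa-M against vehicle (0.39, adjusted p = 0.0328, limma) and in the F test (adjusted p = 0.0321, limma). The widespread partners Cox8a and Cox7b differed from vehicle by -0.01 and -0.08 with GL3 and by 0.08 and -0.14 with PPARa-M. Of the other forms, Cox6a2 and Cox7a1, both of muscle, differed by 0.02 and 0.16 between PPARa-M and SEAP-M, beside 0.05 and 0.06 in their partners Cox6a1 and Cox7a2. Cox6b2 and Cox8c, known from testis, differed by 0.01 and 0.03, beside -0.20 and -0.04 in Cox6b1 and Cox8a. None of these passed.

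Complex V had the widest range of the 5 complexes with PPARa-M against SEAP-M, from -0.33 for Atp5g2 to 0.47 for Atp5mpl, with a median of -0.07 and 9 of 14 genes below 0. Atp5g2, which encodes the c subunit of the rotating ring, had ratios of -0.038, -0.051, -0.126 and -0.123 with PPARa-M and of 0.080, -0.0082, -0.0016 and -0.0088 with SEAP-M. The groups did not overlap, and the difference had an SE of 0.09 and just missed the threshold (adjusted p = 0.0524, limma). The catalytic core gene Atp5a1, for the alpha subunit, was at -0.28 in this comparison (adjusted p = 0.363, limma) and at 0.08 with PPARa against GL3 (adjusted p = 1.0, limma). In that second pair the lowest gene of the complex was Atp5mpl at -0.15 and the highest Atp5d, of the central stalk, at 0.17.

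Atp5mpl, a small subunit of the membrane part, was higher with PPARa-M than with PPARa siRNA. Its ratios were 0.126, 0.234, 0.047 and 0.101 with PPARa-M and -0.141, -0.022, -0.110 and -0.065 with PPARa. All PPARa-M mice were above all PPARa mice, and the difference was 0.70 (SE 0.16, adjusted p = 0.0117, limma). The SEAP-M mice spread widely, at -0.126, 0.072, -0.072 and 0.070, and the vehicle mice at 0.096, -0.085, 0.093 and -0.029. Against these groups the PPARa-M differences of 0.47 (adjusted p = 0.127, limma) and 0.36 (adjusted p = 0.193, limma) did not pass. With scaled arrays the call against PPARa siRNA was lost (0.51, adjusted p = 0.0785, limma).

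Atp5c1, the gamma subunit that turns inside the catalytic head, was lower with PPARa-M than with vehicle. Its ratios were -0.062, -0.075, -0.113 and -0.074 with PPARa-M and 0.023, -0.028, -0.044 and 0.033 with vehicle. The groups did not overlap. The difference of -0.26 (SE 0.08) passed narrowly (adjusted p = 0.047, limma) and was lost with scaled arrays (-0.17, adjusted p = 0.305, limma) and in 15 of 20 fits without 1 array. Against SEAP-M it was -0.16 (SE 0.08, adjusted p = 0.255, limma).

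The comparison of PPARa-M siRNA with vehicle gave the largest count, 5 of the 87 genes (5.75%), against 7.28% of all genes. Ndufs4 was higher, against 3.36% of all genes, and Cox5a, Uqcrfs1, Atp5c1 and Ndufs5-ps were lower, against 3.91%. Ndufs5-ps was at -0.44 (SE 0.13, adjusted p = 0.049, limma), with ratios of -0.053, 0.0080, -0.086 and -0.080 against 0.159, 0.085, 0.0079 and 0.066 with vehicle. The highest PPARa-M mouse stood just above the lowest vehicle mouse. Ndufs5-ps is a pseudogene of Ndufs5, a gene not analysed here, so its signal is uncertain, and the call was lost with scaled arrays (-0.44, adjusted p = 0.121, limma) and in 17 of 20 fits without 1 array. The median over the 87 genes was -0.10 in this comparison, against -0.02 over all genes. The median was -0.20 for complex II, -0.17 for the complex I assembly factors, -0.16 for complexes III and V each, 0.04 for complex IV and 0.0047 for complex I, the last of which turned to -0.0073 with scaled arrays. With scaled arrays 0 of the 87 genes were called in this comparison.

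The comparisons of PPARa-M with SEAP-M, vehicle and PPARa siRNA share the same PPARa-M mice, so their calls are not independent of each other. In the direct comparison of PPARa-M with PPARa siRNA, 4 of the 87 genes (4.6%) were called, against 9.02% of all genes. Ndufs4 and Atp5mpl were higher, against 4.79% of all genes, and Cox5a and Uqcrq lower, against 4.23%. For Cox5a the difference was -0.25 (SE 0.07, adjusted p = 0.0349, limma). With scaled arrays 1 of the 4 calls remained, that of Ndufs4. The remaining comparisons called none: 0 of 87 with PPARa siRNA against vehicle, against 0.0787% of all genes, 0 with SEAP-M against vehicle, against 0.00656%, 0 with GL3 against vehicle, against 0.0131%, and 0 between the control siRNAs, against 0% of all genes. Before adjustment, PPARa siRNA against vehicle held 2 higher genes, against 2.45% of all genes, and 9 lower, against 3.1%. SEAP-M against vehicle held 0 higher, against 3.17%, and 7 lower, against 2.68%. GL3 against vehicle held 2 higher, against 1.19%, and 9 lower, against 1.59%. SEAP-M against GL3 held 9 higher, against 5.36%, and 1 lower, against 5.74%.

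Counts of genes whose groups did not overlap gave a broader view. With PPARa-M against SEAP-M, 12 of the 87 genes (13.8%) were lower in all 4 mice than in any control mouse, against 6.36% of all genes, and 1 was higher, against 3.72%. The 12 were Ndufa9, Ndufb11, Ndufs3, Ndufaf3, Uqcrb, Uqcrc1, Cox4i1, Cox5a, Cox7a2l, Atp5c1, Atp5g2 and Atp5o, and the 1 was Ndufs4. With PPARa against GL3, 1 gene was lower, Ndufs4, against 1.99%, and 1 higher, Cox8c, against 2.07%. With PPARa-M against vehicle the counts were 12 lower, against 7.73% of all genes, and 2 higher, against 5.48%.

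The control siRNAs also differed from each other in such counts. Between SEAP-M and GL3, 7 of the 87 genes (8.05%) were higher with SEAP-M in all mice, against 4.5% of all genes, and 0 were lower, against 4.92%. The median over the 87 genes was 0.05, against 0.0050 over all genes. Cox7a2l had the smallest p of these genes, with ratios of 0.067, 0.032, 0.053 and 0.051 with SEAP-M and 0.030, -0.069, -0.066 and -0.037 with GL3. Every SEAP-M mouse was above every GL3 mouse, but the difference of 0.29 (SE 0.09) did not pass (adjusted p = 0.245, limma).

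Means per complex are given as a description, without a test. With vehicle the mean was highest for complex V, 0.0105 ± 0.0214 (SD, n = 4) log10 units, and lowest for complex IV, -0.0187 ± 0.0268. With PPARa-M the lowest was complex III, -0.0418 ± 0.0257, beside complex II at -0.0374 ± 0.0237, and the highest complex I at -0.0044 ± 0.0261. With SEAP-M, complex III stood at -0.0030 ± 0.0139. In complex III, 1 PPARa-M mouse, B, stood above the lowest SEAP-M mouse, with mice at -0.025, -0.015, -0.065 and -0.063 with PPARa-M and -0.0010, -0.023, 0.0075 and 0.0044 with SEAP-M.

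Within each mouse, complex V stood below complex IV in 15 of 20 mice. It did so in 0 of 4 vehicle mice, in 4 of 4 GL3, 4 of 4 PPARa, 3 of 4 SEAP-M and 4 of 4 PPARa-M mice. Complex III stood below complex IV in 0 of 4 vehicle mice and in 3, 3, 3 and 4 of 4 mice of those groups. For complex I the counts were 0 of 4 vehicle mice and 3, 3, 3 and 1 of 4, and for complex II 1 of 4 vehicle mice and 4, 3, 4 and 3 of 4. Such an order within a mouse does not depend on a shift shared by all genes of its array. The gaps were small: between the lowest and the highest complex of a mouse they ran from 0.0116 to 0.0711 log10 units. Forms of complex IV from muscle and from testis are part of this order. Of these, Cox8b and Cox6a2 of muscle and Cox7b2 and Cox8c of testis had their lowest group mean with vehicle. The muscle form Cox7a1 and the testis form Cox6b2 did not. For Cox8c the low vehicle mean rested on vehicle D, at -0.259. The share of these forms in the order was not tested.

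**Figure D4:**
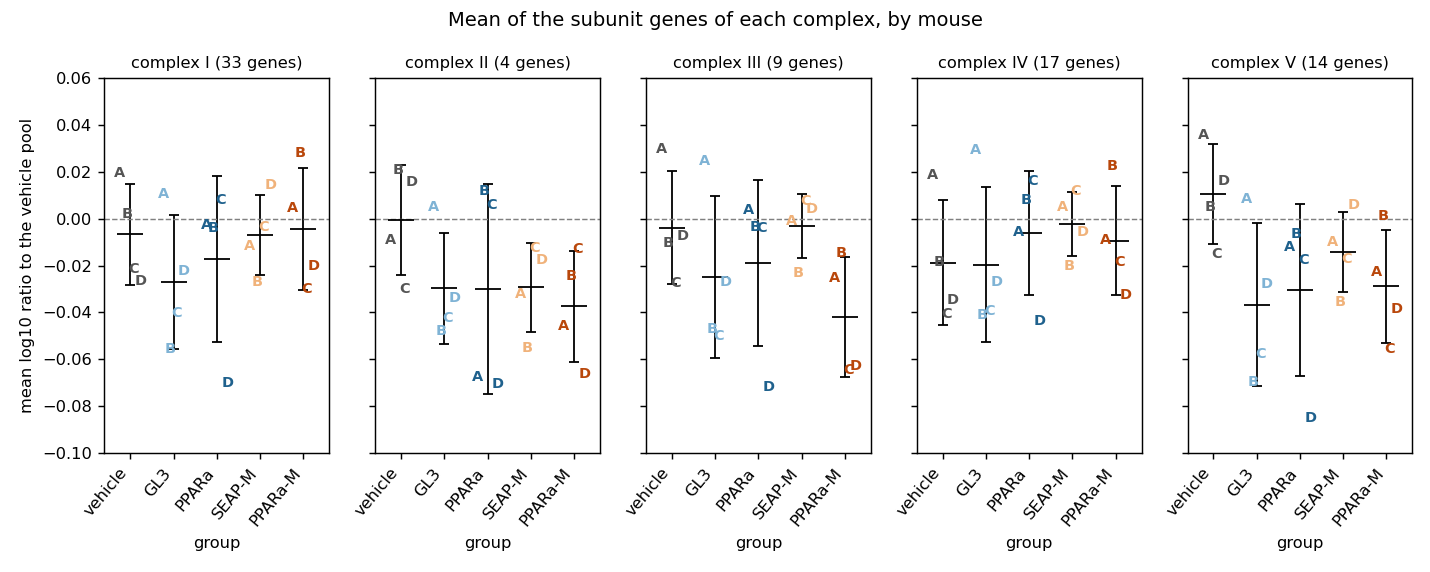
Mean log10 ratio to the vehicle pool (vertical axis) of the genes of each complex in each mouse, by group (horizontal axis). Letters are the mice A to D, with bars for the mean and SD (n = 4). Mouse D of PPARa siRNA is the lowest of its group in every complex, and complex III is lowest with PPARa-M, at -0.0418.

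Other genes around the respiratory chain were described by lists made by function. Calls in these lists stand beside 2.54% of all genes called with PPARa-M against SEAP-M. Of 28 assembly factors, 2 passed: Nubpl, which delivers iron-sulfur clusters to complex I, was lower (-0.29, SE 0.07, adjusted p = 0.0442, limma), and Cox16, an assembly factor of complex IV, was higher (0.36, SE 0.09, adjusted p = 0.0496, limma). Of 14 genes of mobile carriers and electron entry, 1 passed, Coq6, an enzyme of ubiquinone synthesis, which was lower (-0.33, SE 0.08, adjusted p = 0.0321, limma). With scaled arrays these 3 were at -0.17, 0.25 and -0.19 and did not pass (adjusted p = 0.339, 0.264 and 0.3, limma). The medians of these lists were -0.02 and -0.10, beside -0.01 over all genes.

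Of 16 citric acid cycle genes, 1 was lower with PPARa-M against SEAP-M, Suclg1, a subunit of succinyl-CoA synthetase (-0.40, SE 0.07, adjusted p = 0.00878, limma). Of 13 genes of ATP export and uncoupling, 0 passed, the smallest p being that of the pyrophosphatase Ppa2 (-0.33, SE 0.09, adjusted p = 0.0502, limma). Of 12 regulators, 1 passed, Nrip1, a corepressor known to restrain oxidative genes, which was higher (0.52, SE 0.13, adjusted p = 0.0364, limma). With scaled arrays Suclg1 was at -0.26 and Nrip1 at 0.38, and neither passed (adjusted p = 0.179 and 0.271, limma). Ppargc1a, the coactivator of respiratory genes, was at 0.10 (SE 0.11, adjusted p = 0.674, limma), and the factors Nrf1 and Tfam at 0.01 and -0.17. With PPARa against GL3, 0 genes passed in any of these 5 lists, and Nrip1 was at -0.36 (SE 0.13, adjusted p = 0.817, limma).

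Where a gene had 2 probes, they were set side by side. The PPARa-M minus SEAP-M difference of the lower and the higher probe was -0.16 and -0.02 in Ndufs1, -0.12 and 0.11 in Uqcrc2, -0.01 and 0.12 in Atp5l, -0.04 and 0.03 in Ndufb2 and -0.05 and -0.02 in Ndufv3. Uqcrc2, a core subunit of complex III, thus had probes of opposite sign. None of the 5 genes was called in any comparison.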

How the data were processed

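Each array compared cRNA of 1 mouse liver with that of a vehicle pool on a custom 2-colour oligonucleotide array. The authors deposited log10 ratios, 1 per probe and mouse, limited to 2 and -2, and 40 of 469860 values lay at the limit. How the authors normalized them is not given in the sources used here, and the platform's own error model was not repeated. Of 23493 probes, 18790 had a single gene symbol, 65 several and 4638 none. Array medians ran from -0.0093 to 0.006, and correlations between arrays over all probes from -0.255 to 0.638. The number of arrays limits the precision.

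Probes of a gene were averaged, and 15252 genes were fitted on the log2 scale with 1 mean per group over all 20 arrays, by lmFit and eBayes (limma 3.58.1, R 4.3.3). P-values were two-sided and adjusted by the Benjamini-Hochberg method within each comparison, with a threshold of 0.05. Values were described with Python 3.11.15, numpy 2.4.6 and pandas 2.3.3, and plotted with matplotlib 3.10.9. The fit was checked on simulated data.

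The members and all gene lists were chosen with earlier results of these data known. Genes were named when called, when highest or lowest of their complex in either pair of a Ppara siRNA and its control, as core subunits, as tissue-restricted forms with their partners, for several probes, or, in other lists, for the smallest p. Atp5b and Cox4i2 were not analysed here. Symbols of 86 of the 87 members matched RefSeq (GRCm38.p6), all but Atp5k-ps1. Alternatives were a threshold of 0.01, each probe on its own, median centring, quantile normalization, scaling to one interquartile range, array quality weights, robust moderation, a replicate block, the compared groups alone, genes at the limit left out, and each array left out in turn.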

Additional observations from a re-analysis of the deposited data

Results flagged for a closer look

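In groups of 4 mice, 17 of 215 groups tested had a mouse far from the other 3 by Dixon's criterion, where chance gives about 1 in 20. Values are log10 ratios to the pool. In complex V, Atp5a1 was at -0.0489 in vehicle C and at -0.0022 in PPARa-M D, Atp5g2 at 0.0801 in SEAP-M A and Atp5mpl at -0.006 in GL3 A.

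In complex IV, Cox6a1 was at 0.0552 and Cox7b at 0.0451, both in GL3 A. Cox6b2 was at -0.0353 in vehicle B and at 0.0468 in SEAP-M A, and Cox7a2 at -0.0797 in PPARa D. In complexes I and II, Ndufs1 was at -0.0904 in PPARa-M B, Ndufs4 at -0.0608 in SEAP-M C, Ndufv1 at -0.0636 in GL3 B and Sdhb at 0.0807 in PPARa-M B. The assembly factor Ndufaf7 was at 0.0828 in vehicle D.

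The mouse PPARa D was far below the others of its group in the mean of complex I (-0.07), complex III (-0.0718) and complex V (-0.0851). The effect of the Ppara siRNAs on Ndufs4, each relative to its control siRNA, differed by 0.437 on the log2 scale (adjusted p = 0.034, limma).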

How the results depend on the processing

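No called difference of the 87 genes changed direction under any alternative. Of all 870 differences of the 87 genes over 10 comparisons, 26 changed sign with median centring, 73 with quantile normalization and 63 with scaled arrays, the largest of these at a reported size of 0.11 on the log2 scale. The counts of 0 with both Ppara siRNAs against both controls, PPARa against GL3, PPARa against vehicle, SEAP-M against vehicle and GL3 against vehicle stayed at 0 in all 10 other settings and without any single array. PPARa-M against SEAP-M called 1 gene, and 0 at an adjusted p under 0.01, with quantile normalization, with scaled arrays and with the compared groups alone, 2 with median centring, 7 with array weights and 0 to 3 without 1 array. PPARa-M against vehicle called 5, and 0 at 0.01, with quantile normalization, with scaled arrays and with the groups alone, 3 with median centring, 11 with array weights and 0 to 7 without 1 array. PPARa-M against PPARa called 4, and 1 at 0.01, with quantile normalization and with scaled arrays, 2 with the groups alone, 3 with median centring and with robust moderation, 5 with array weights and 2 to 4 without 1 array. SEAP-M against GL3 called 0, and 1 with array weights. The difference between the effects called 1, and 0 at 0.01, with quantile normalization, with scaled arrays and with the groups alone, 2 with each probe on its own, 5 with array weights and 0 to 2 without 1 array. The F test called 2, and 1 at 0.01, 0 with quantile normalization and with scaled arrays, 5 with array weights and 1 to 2 without 1 array. The cause of these changes was not tested.

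Letters A to D were not treated as pairing the mice. The correlation of deviations had a median of -0.017 over 40 same-letter pairs and of 0.012 over 120 others. It was over 0.1 in 13 of the 40 and in 23 of the 120, so the medians cannot exclude that some mice were paired. With the letter as a replicate block, PPARa-M against vehicle called 3 genes and the difference between the effects 0. Without PPARa D, PPARa-M against SEAP-M called 3. The Cox5a call against vehicle was lost without vehicle A (adjusted p = 0.0607, limma) or vehicle D (0.0718).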

Other observations

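Against vehicle, some genes of the citric acid cycle, carrier and ATP export lists were lower with PPARa-M siRNA. Of 16 citric acid cycle genes 3 were lower, namely Suclg1 (-0.47, adjusted p = 0.00222, limma), Suclg2 (-0.64, adjusted p = 0.0245, limma), which form succinyl-CoA synthetases, and Idh2 (-0.44, adjusted p = 0.0226, limma), the mitochondrial NADP-dependent isocitrate dehydrogenase. Of 14 carrier genes 2 were lower, Coq6 (-0.38, adjusted p = 0.00971, limma) and Cycs, cytochrome c (-0.32, adjusted p = 0.0277, limma).

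Of 13 genes of ATP export and uncoupling, Slc25a5, an ADP/ATP carrier (-0.71, adjusted p = 0.0184, limma), Slc25a3, the phosphate carrier (-0.34, adjusted p = 0.0361, limma), and Ppa2 (-0.35, adjusted p = 0.0238, limma) were lower. Atpif1, the inhibitor of the ATP synthase, was higher (0.41, adjusted p = 0.0355, limma). These values come from the same PPARa-M mice as those above, against 7.28% of all genes called. With scaled arrays, where 29 of 15252 genes were called, all 9 kept their direction and none passed, with adjusted p from 0.0711 for Suclg1 to 0.196 for Ppa2 (limma). Without that scaling, only Suclg1 and Coq6 of the 9 passed against SEAP-M control siRNA. The mean of the ATP export list was -0.0118 log10 units with PPARa-M, -0.0170 with SEAP-M and 0.0079 with vehicle. For the citric acid cycle list these means were -0.0372, -0.0213 and 0.0041, and for the carrier list -0.0345, -0.0012 and 0.0126. In the assembly factor and regulator lists, 3 of 28 and 1 of 12 genes were called against vehicle with arrays centred on their medians. That setting called 1050 of 15252 genes. The medians of these lists were -0.05 and 0.01 on the log2 scale there.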
